A study of Mus musculus with 53 samples.

Results

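The complement components and receptors described here are 8 genes, C1qa, C1qb, C1qc, C3, C4b, Cfb, C3ar1 and C5ar1, out of 49568 genes listed for each sample. They were taken by gene symbol, and all 8 were measured in all 53 samples. RNA-seq had been performed on sciatic nerve (SCN) of male C57BL/6J mice to follow the nerve transcriptome in prediabetes, in type 2 diabetes and after dietary reversal (DR). SD mice received a standard diet, and 8 were sampled at 24 weeks of age and 5 at 16 weeks. HFD mice, the prediabetic model, were fed a high-fat diet with 60% of kcal from fat from 5 weeks of age, and 7 were sampled at each age. HFD-STZ mice, the type 2 diabetic model, received the same diet and streptozotocin (STZ), a beta cell toxin, at 12 weeks of age, as 75 mg/kg and 3 days later 50 mg/kg, and 8 were sampled at 24 weeks and 5 at 16 weeks. In the DR groups, HFD or HFD-STZ mice were changed at 16 weeks to a control diet for 8 weeks and sampled at 24 weeks, which gave 7 samples for HFD-DR and 6 for HFD-STZ-DR. The series' description gives the control diet as 13% of kcal from fat, and the study's text gives a different content for its standard diet.

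Complement is a cascade of plasma and tissue proteins that marks targets for uptake or lysis. C1q, built from the chains encoded by C1qa, C1qb and C1qc, starts the classical pathway, C4b belongs to the next step, C3 is the component on which the pathways converge, and factor B (Cfb) forms the alternative pathway convertase. The receptors C3ar1 and C5ar1 bind the small fragments C3a and C5a, and in peripheral nerve complement is best known for its part in the clearance of myelin after injury, in which macrophages take part.

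All values are the deposited log2 expression values, so a difference of 1 is 2-fold on the linear scale of those values. How they were scaled is not stated, so for low-level genes such differences may not be plain fold changes. Schwann cell markers were at a high level in all samples, as labelled: all 7 were above the detection floor used here (a mean log2 value of 3.32, which is 10 on the linear scale), the group means of the 7 genes lay between 17.51 and 17.91, and the most abundant was Pmp22 at 20.18. No 2 samples held identical values, and correlations between samples over 18069 genes ran from 0.916 to 0.994. The library of HFD-STZ replicate 7 at 24 weeks stood apart, with a mean correlation of 0.939 with the others. Next came HFD-STZ-DR replicate 4 at 0.957 and SD replicate 5 at 24 weeks at 0.963. The 2 main comparisons that use HFD-STZ at 24 weeks are also given without it.

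By location, the C1q chains are neighbours on chromosome 4 (GRCm38, GENCODE M21 annotation, minus strand): C1qb at 136880129 to 136886187, C1qc at 136889804 to 136893065 and C1qa at 136895917 to 136898803. C4b (34728380 to 34743882), Cfb (34856374 to 34862518) and C3 (57203970 to 57228136) lie on the minus strand of chromosome 17. C3ar1 is on chromosome 6 (122847138 to 122856161) and C5ar1 on chromosome 7 (16246743 to 16259540), both also on the minus strand. Values of 2 members carry a sequence limit. Of the 100-base stretches of C4b exons, 16.5% are also found in its close copy C4a, whose own log2 value ran from 3.90 to 5.51. For Cfb, 81.0% are shared with the overlapping gene Gm20547, listed between -2.29 and -2.27 in all samples, so the level given for Cfb is uncertain.

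The study's methods name FPKM for expression levels, and whether the deposited log2 values are already per length is not stated, so levels of different genes are given on 2 scales. Compared per length on the premise that they are not (mean log2 value minus log2 of the exon length in kb), C3 at 12.11 and C4b at 12.07 had the highest levels of the 8 members. The C1q chains followed at 11.80 for C1qb, 11.17 for C1qa and 10.89 for C1qc. The receptors were lower, with 8.35 for C5ar1 and 7.42 for C3ar1, and Cfb was lowest at 2.73. Among all 55 complement genes on the wider list, the highest level per length belonged to Cfd, which encodes factor D (adipsin), at 14.19, followed by the C1 inhibitor gene Serping1 at 14.04 and the lysis inhibitor gene Cd59a at 13.40. On the values as deposited C4b (14.58) was above C3 (14.47), C1qc (11.84) was above C1qa (11.22), and Serping1 (15.26) was highest of the list, above Cfd (14.07).

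**Figure D1:**
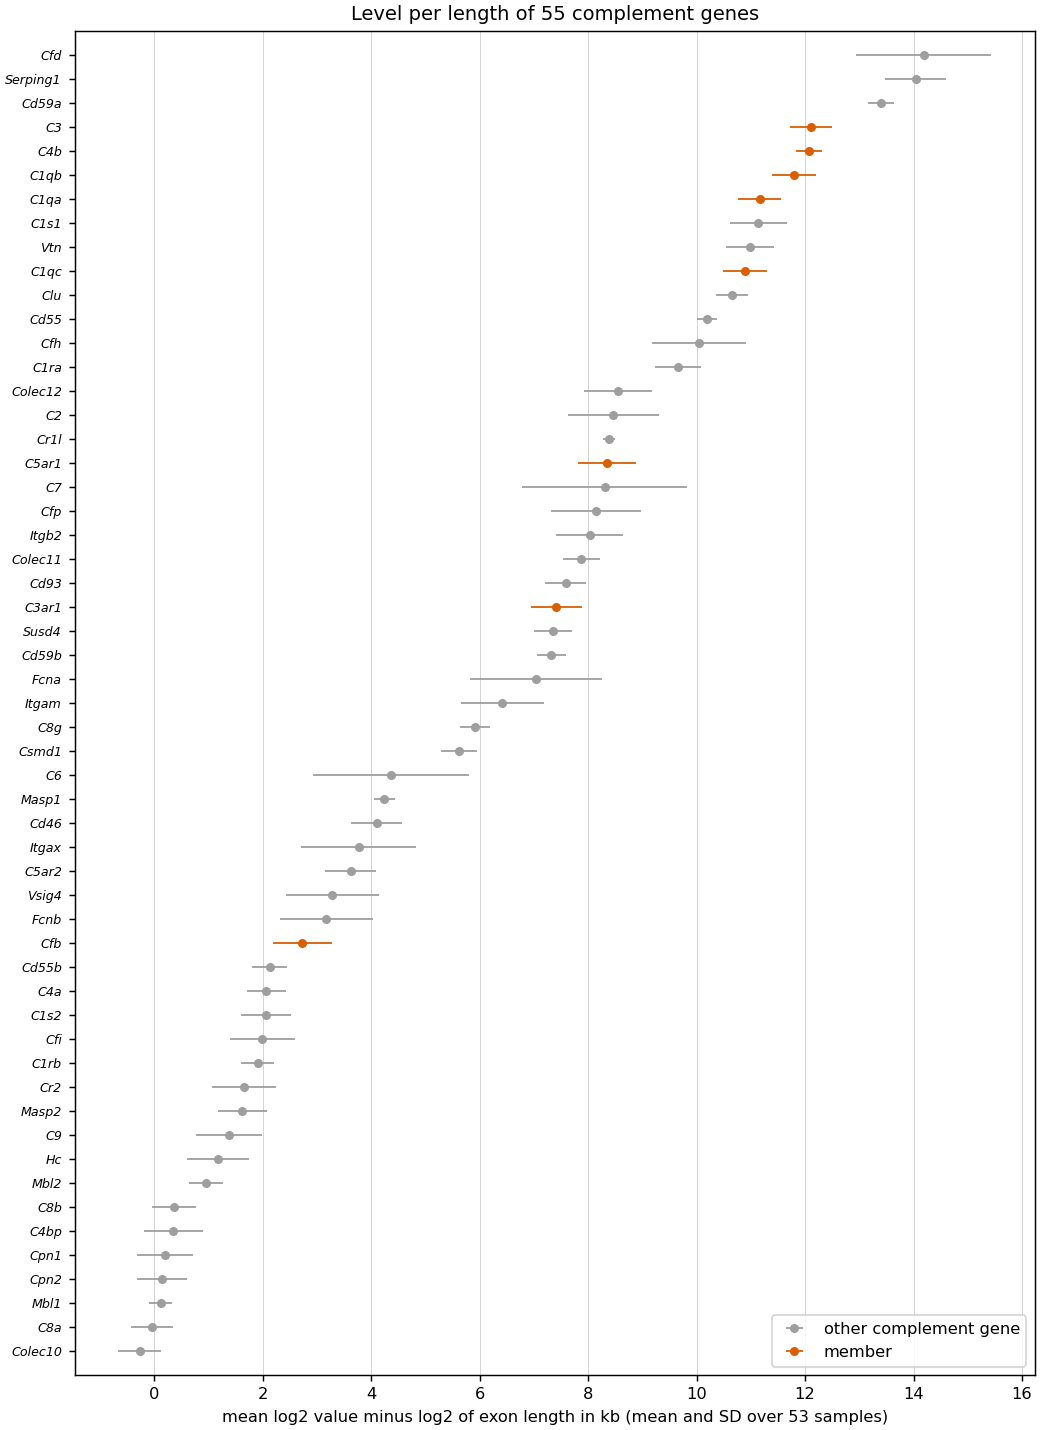
Level per length of 55 complement genes, as mean log2 value minus log2 of exon length in kb over 53 samples, with bars for 1 SD; the 8 members are in orange. C3 and C4b (12.11 and 12.07) are above the C1q chains (10.89 to 11.80), and Cfb (2.73) is far below the other members. The level of Cfb is uncertain because of the sequence it shares with Gm20547.

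None of the 8 members passed an adjusted p of 0.05 (limma, 2-sided, Benjamini-Hochberg over all genes tested) in any of the 14 comparisons between groups. Over these 112 tests the smallest adjusted p was 0.397, and 9 tests had an unadjusted p under 0.05. In no comparison were the samples of one group all above or all below those of the other for any member. The share of all genes with such a separation is not given, so nothing is drawn from this count. The size of each group is small and the spread wide, and the intervals are given beside the differences. A p that misses the threshold does not show that values did not differ.

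Counts per comparison were read against all genes tested. In HFD against SD at 24 weeks, all 8 members had a higher mean in HFD and 0 passed either threshold, where 0.121% of 18191 genes passed the adjusted and 9.05% the unadjusted threshold. The median difference of the 8 was 0.20, against 0.01 over all genes. The direction turned for C1qa (-0.01) and C1qc (-0.06) without HFD replicate 4 and for C4b (-0.02) without HFD replicate 6. After reversal, HFD-DR against HFD, all 8 had a lower mean, with 0 adjusted and 2 unadjusted calls, beside 0.0108% and 6.72% of 18475 genes. Their median was -0.40, against 0.00 over all genes.

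For HFD-STZ against SD at 24 weeks, 3 members were higher and 5 lower with 0 calls at either threshold, beside 0.0336% and 5.99% of 17846 genes. HFD-STZ-DR against HFD-STZ gave 8 lower means, 0 adjusted and 1 unadjusted call, beside 0.084% and 6.48% of 17862 genes. The median of the 8 was -0.05 in the first and -0.28 in the second, where all genes had 0.00 and 0.01. HFD and SD at 24 weeks serve in more than 1 comparison each, so these counts share samples.

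At 16 weeks the calls were 0 at both thresholds in each comparison when the library-number runs described at the end were not in the fit. HFD against SD had 5 members higher and 3 lower, beside 0.00557% of 17962 genes past the adjusted and 8.55% past the unadjusted threshold. In HFD-STZ against SD, 4 were higher and 4 lower, beside 0% and 8.41% of 17879 genes. HFD-STZ against HFD had 1 higher and 7 lower, beside 0% and 4.88% of 18202 genes. At 24 weeks, HFD-STZ against HFD gave 2 higher and 6 lower with 0 calls, beside 0% and 5.59% of 18117 genes.

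Against SD at 24 weeks, HFD-DR had all 8 members lower and 0 calls, beside 0% of 18145 genes at the adjusted and 5.14% at the unadjusted threshold. HFD-STZ-DR also had all 8 lower, with 0 adjusted calls and 4 unadjusted, which were C1qa, C1qb, C1qc and C5ar1, beside 0% and 9.16% of 17889 genes. Between HFD-STZ-DR and HFD-DR, the members were 8 of 8 lower in HFD-STZ-DR with 0 calls, beside 0% and 3.58% of 18189 genes.

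Age was compared within each diet. All 8 members were higher at 24 than at 16 weeks in SD with 0 calls, beside 0% and 10.5% of 17788 genes. In HFD 7 were higher and 1 unadjusted call was C1qc, beside 0.0654% adjusted and 5.9% unadjusted of 18360 genes. In HFD-STZ 7 were higher and the unadjusted call was C1qb, beside 0% and 12.5% of 17963 genes. Whether the diet effect differed with age, or the effect of DR with STZ, was tested by limma interaction terms, with 0 calls among 24 member tests and a smallest unadjusted p of 0.207. The background was 0% of 18087 genes for age by HFD, 0% of 17871 for age by HFD-STZ and 0% of 18161 for DR by STZ.

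**Figure D2:**
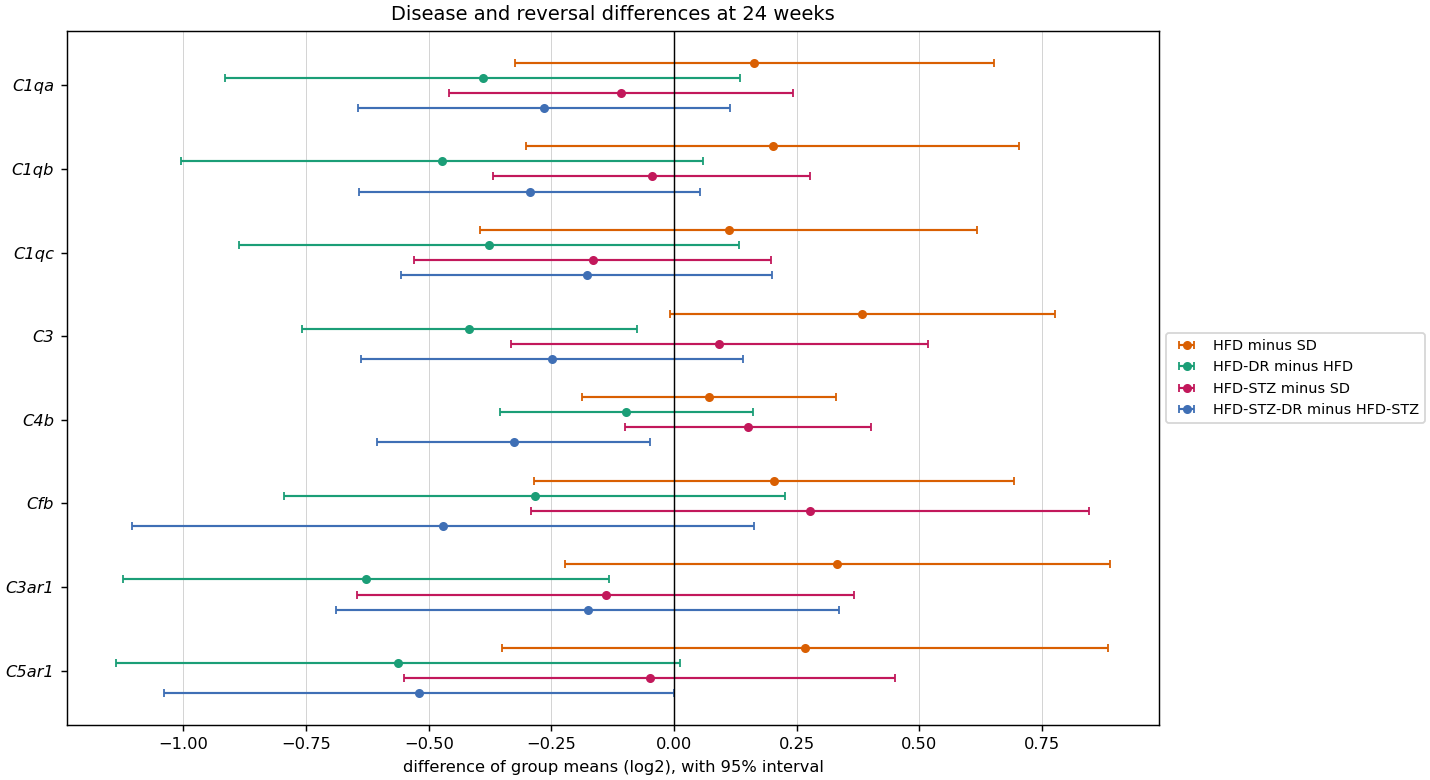
Differences of group means (log2) for the 8 members in the 4 disease and reversal comparisons at 24 weeks; points are the limma estimates and bars the 95% intervals. All 8 estimates for HFD-DR minus HFD and for HFD-STZ-DR minus HFD-STZ are below 0, and most intervals include 0.

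The C1q chains belong to one protein, and their transcripts varied together across samples. For the 2 chains with a RefSeq promoter (5 of the 8 members matched, C1qb, C1qc, C3, C3ar1 and C5ar1), the bases before the start are shown 5′ to 3′ on the transcribed strand (GRCm38.p6), chr4:136886201-136886450 for C1qb and chr4:136893066-136893164 for C1qc. The 250 bases before the start were searched on both strands for GAGGAA, the core of the sites bound by the myeloid factor PU.1, for TTNNGNAA, letters typical of C/EBP sites, for TATAAA and for letters typical of NF-kappa-B sites. Capitals mark GAGGAA on either strand. The RefSeq start of C1qc lies inside its GENCODE gene, so the stretch shown for C1qc is the far end of its 250 bases and stops where that gene begins.
C1qb: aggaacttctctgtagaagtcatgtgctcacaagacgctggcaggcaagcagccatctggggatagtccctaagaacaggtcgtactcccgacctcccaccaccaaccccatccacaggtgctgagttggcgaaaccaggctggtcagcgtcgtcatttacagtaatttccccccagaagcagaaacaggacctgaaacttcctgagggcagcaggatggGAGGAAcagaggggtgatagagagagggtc
C1qc: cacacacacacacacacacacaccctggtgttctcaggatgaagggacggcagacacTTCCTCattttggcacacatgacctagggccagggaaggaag

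Counted from the RefSeq start, GAGGAA lies at -30 to -25 in C1qb and, on the other strand, at -193 to -188 in C1qc. The same letters occur in 23.3% of 32851 promoters of that length, TTNNGNAA in 36.8%, TATAAA in 12.4% and the NF-kappa-B letters in 4.11%. In the windows of C3, C3ar1 and C5ar1, GAGGAA was not found. TTNNGNAA was found in C1qc at -81 to -74, which is in the part not shown, C5ar1 at -157 to -150 and at 3 places in C3, TATAAA in C3ar1 at -235 to -230 and the NF-kappa-B letters in C3ar1 at -14 to -5. These are matches of letters and no binding was measured.

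C1qa encodes the A chain of C1q. At 24 weeks its log2 value was lowest 11.18, median 11.28 and highest 11.94 in SD, and 10.57, 11.60 and 12.61 in HFD. HFD-DR samples ran from 10.65 over 11.22 to 11.50, HFD-STZ from 10.77 over 11.34 to 11.79 and HFD-STZ-DR from 10.74 over 11.03 to 11.30. The HFD group had the widest range, with 2 of its 7 samples above and 2 below all SD samples, and the ranges of all 5 groups overlapped.

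At 16 weeks, the 5 SD samples had C1qa values of 10.82, 10.71, 11.23, 11.31 and 11.49, and the 5 HFD-STZ samples 10.80, 10.81, 10.89, 11.07 and 11.40. HFD samples at 16 weeks ran from 10.80 over 11.03 to 11.39. The 3 groups at 16 weeks covered almost the same range.

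Over all groups, the mean of C1qa was 11.56 ± 0.67 (SD, n = 7) in HFD at 24 weeks and 11.40 ± 0.27 (SD, n = 8) in SD. Then came HFD-STZ at 11.29 ± 0.43 (n = 8), HFD-DR at 11.17 ± 0.30 (n = 7) and SD at 16 weeks at 11.11 ± 0.33 (n = 5), with HFD at 16 weeks at 11.07 ± 0.25 (n = 7), HFD-STZ-DR at 11.03 ± 0.22 (n = 6) and HFD-STZ at 16 weeks at 10.99 ± 0.25 (n = 5). No neighbours in this order differed by more than the pooled SD within groups of 0.37, the largest step being 0.16. The order was the same for C1qb, and for C1qc except that HFD-STZ-DR and HFD at 16 weeks changed places.

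For the A chain, HFD minus SD at 24 weeks was 0.16 (95% interval -0.32 to 0.65, limma adjusted p = 0.847). HFD-DR minus HFD was -0.39 (-0.91 to 0.13), HFD-STZ minus SD -0.11 (-0.46 to 0.24) and HFD-STZ-DR minus HFD-STZ -0.27 (-0.65 to 0.11). Against SD at 24 weeks, HFD-STZ-DR differed by -0.37 (-0.64 to -0.11), with 4 of 6 samples below all SD samples, an exact permutation p of 0.0133 and a limma adjusted p of 0.401. That difference did not pass the test over all genes. In the same comparison the marker means described below were lower for macrophages (-0.35), fibroblasts (-0.61), mast cells (-0.80) and adipocytes (-1.47). The means for skeletal muscle (-0.95), liver (-0.36), endothelium (-0.21) and neutrophils (-0.17) were lower too. Marker means were higher for Schwann cells (0.09) and red cells (0.13), and the part of any of these cells was not tested. The alternatives, which include leaving out each sample, moved C1qa at 24 weeks over -0.01 to 0.33 for HFD minus SD, -0.56 to -0.22 for HFD-DR minus HFD, -0.18 to -0.03 for HFD-STZ minus SD, -0.34 to -0.19 for HFD-STZ-DR minus HFD-STZ and -0.43 to -0.30 for HFD-STZ-DR minus SD.

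The B and C chains gave the same picture. C1qb at 24 weeks had lowest, median and highest values of 11.79, 12.12 and 12.58 in SD, 11.31, 12.27 and 13.43 in HFD and 11.34, 11.88 and 12.10 in HFD-DR. For HFD-STZ they were 11.50, 12.07 and 12.45, and for HFD-STZ-DR 11.43, 11.83 and 12.04. As for the A chain, 2 of 7 HFD samples were above and 2 below all SD samples. At 16 weeks C1qb was 11.36, 11.52, 11.98, 11.98 and 12.13 in SD, 11.51, 11.33, 11.53, 11.71 and 12.14 in HFD-STZ, and lowest, median and highest 11.48, 11.70 and 12.01 in HFD.

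C1qc at 24 weeks had lowest, median and highest values of 11.62, 12.13 and 12.61 in SD, 11.27, 12.22 and 13.20 in HFD and 11.40, 11.85 and 12.07 in HFD-DR. For HFD-STZ they were 11.34, 11.97 and 12.32, and for HFD-STZ-DR 11.37, 11.80 and 12.01. Here too the HFD samples spread to both sides of the SD range. At 16 weeks C1qc was 11.37, 11.62, 11.91, 11.95 and 12.08 in SD, 11.44, 11.33, 11.44, 11.69 and 12.00 in HFD-STZ, and lowest, median and highest 11.31, 11.52 and 11.99 in HFD. The ranges overlapped between all groups at each age.

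Between groups, HFD-DR minus HFD was -0.47 (95% interval -1.01 to 0.06) for C1qb and -0.38 (-0.89 to 0.13) for C1qc. With the alternatives C1qb ran over 0.01 to 0.36 for HFD minus SD, -0.63 to -0.28 for HFD-DR minus HFD, -0.10 to 0.03 for HFD-STZ minus SD and -0.37 to -0.22 for HFD-STZ-DR minus HFD-STZ. For C1qc the ranges were -0.06 to 0.26 for HFD minus SD, -0.53 to -0.20 for HFD-DR minus HFD, -0.23 to -0.09 for HFD-STZ minus SD and -0.26 to -0.09 for HFD-STZ-DR minus HFD-STZ. In HFD-DR minus HFD each of the 3 chains was nearest 0 without HFD replicate 4. The smallest exact permutation p for either chain in any of these 4 comparisons of disease and reversal at 24 weeks was 0.115, for C1qb in HFD-DR against HFD.

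Across 53 samples the 3 chains were correlated with each other at r = 0.961 to 0.974 (a description over samples that share groups). C1qb exceeded C1qa by 0.69 ± 0.09 (SD, n = 53) and C1qc exceeded C1qa by 0.62 ± 0.11 (SD, n = 53). By contrast, C1q chains and C3 were correlated at 0.459 to 0.488 and C1q chains and C4b at 0.241 to 0.300.

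**Figure D3:**
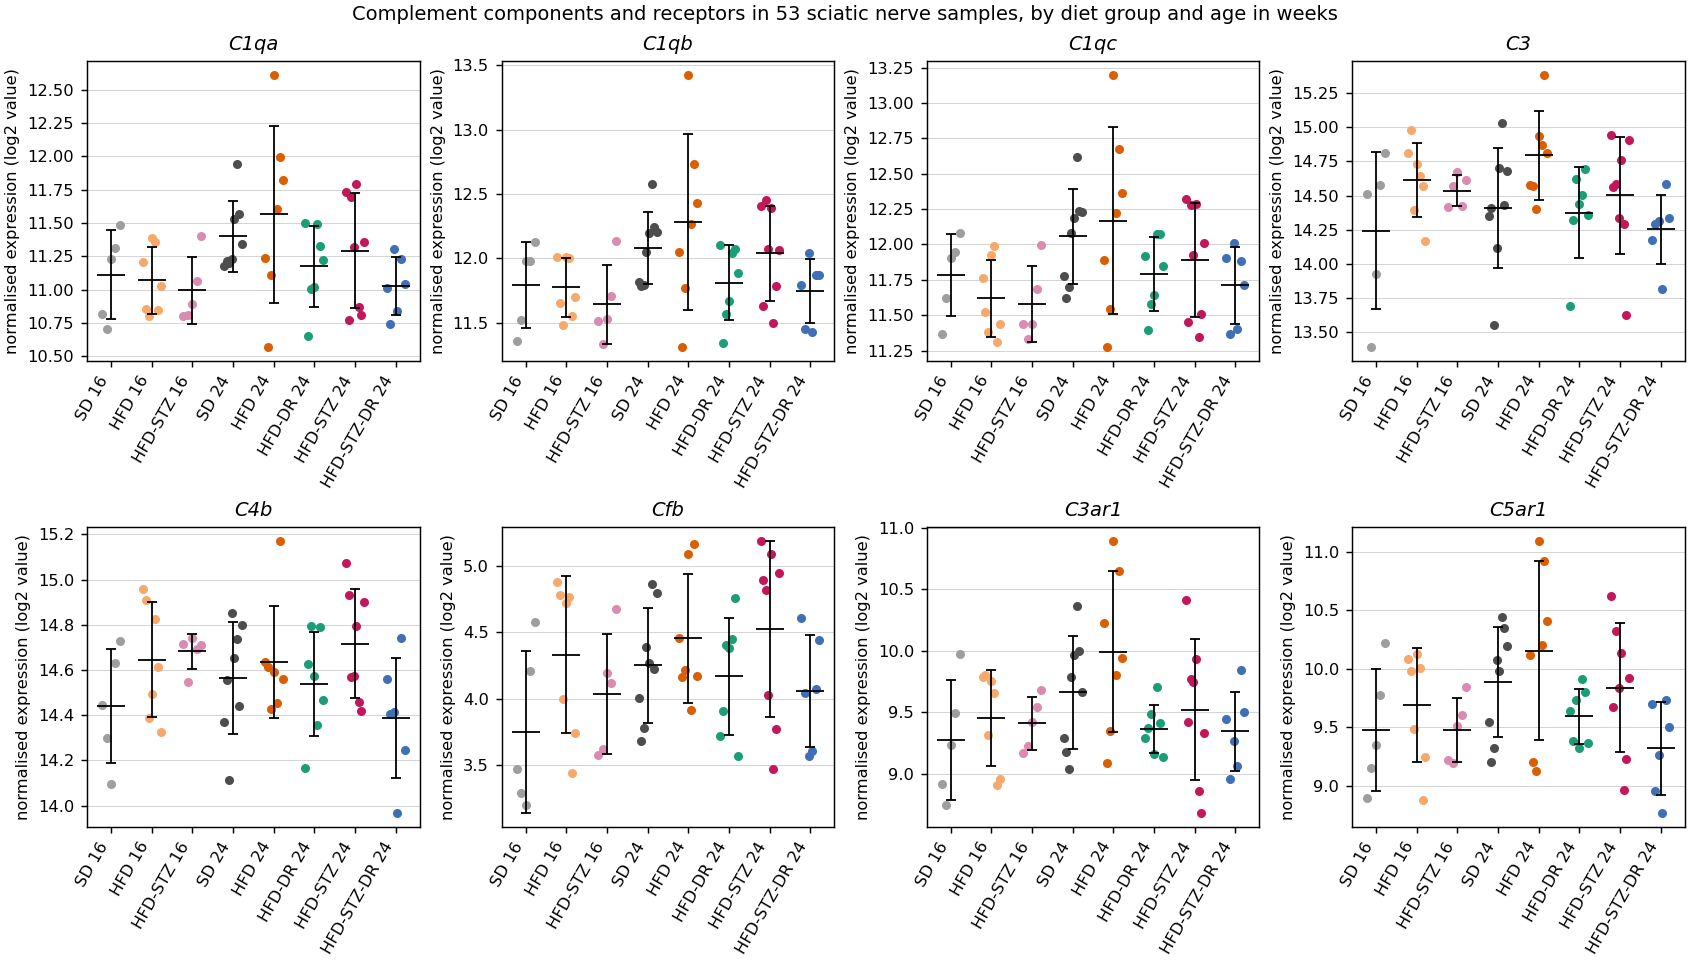
Log2 values of the 8 members in 53 sciatic nerve samples by diet group and age in weeks; points are samples, long bars group means and whiskers 1 SD. The C1q chains, C3ar1 and C5ar1 scatter most in HFD mice at 24 weeks (C1qa from 10.57 to 12.61), and groups overlap for every member.

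C3 is the central component of the cascade. At 24 weeks its log2 value in SD was lowest 13.55, median 14.42 and highest 15.03, and in HFD 14.40, 14.81 and 15.38. In HFD-DR it ran from 13.69 over 14.44 to 14.70, in HFD-STZ from 13.62 over 14.57 to 14.95 and in HFD-STZ-DR from 13.82 over 14.30 to 14.58. HFD samples had the highest mean, 14.79 ± 0.32 (SD, n = 7) against 14.41 ± 0.44 (SD, n = 8) in SD, with 1 of 7 above all SD samples and none below.

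At 16 weeks the SD values of C3 were 14.51, 13.39, 13.93, 14.58 and 14.81 and the HFD-STZ values 14.41, 14.57, 14.67, 14.42 and 14.61, while HFD ran from 14.17 over 14.64 to 14.98. The SD group was the more scattered. HFD minus SD was 0.38 at 24 weeks (95% interval -0.01 to 0.78, limma adjusted p = 0.565, exact permutation p = 0.0774) and 0.37 at 16 weeks (-0.09 to 0.83). The difference at 24 weeks lay in the same direction in 6 of 7 runs of neighbouring library numbers that held both groups.

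HFD-DR minus HFD was -0.42 for C3 (95% interval -0.76 to -0.08), with 3 of 7 HFD-DR samples below all HFD samples, an exact permutation p of 0.0216 and a limma adjusted p of 0.655. It was lower in 4 of 6 runs with both groups (mean of the differences within runs, -0.30), and with run in the fit its unadjusted p was above 0.05. HFD-STZ minus SD was 0.09 (-0.33 to 0.52) and HFD-STZ-DR minus HFD-STZ -0.25 (-0.64 to 0.14). The differences of C3 over the alternatives were 0.26 to 0.47 for HFD minus SD, -0.48 to -0.30 for HFD-DR minus HFD, -0.03 to 0.22 for HFD-STZ minus SD and -0.37 to -0.16 for HFD-STZ-DR minus HFD-STZ. HFD-STZ-DR minus HFD-STZ was nearest 0 without HFD-STZ-DR replicate 4 and farthest without HFD-STZ replicate 7. From highest to lowest, the means of C3 were HFD at 24 weeks 14.79, HFD at 16 weeks 14.61, HFD-STZ at 16 weeks 14.54, HFD-STZ at 24 weeks 14.50, SD at 24 weeks 14.41, HFD-DR 14.38, HFD-STZ-DR 14.25 and SD at 16 weeks 14.24. Each step between neighbours was at most 0.18, below the pooled SD within groups of 0.37.

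C4b encodes the component that C1 activates in the classical pathway. Its log2 value at 24 weeks was lowest 14.11, median 14.60 and highest 14.85 in SD, 14.43, 14.59 and 15.17 in HFD and 14.16, 14.57 and 14.80 in HFD-DR. HFD-STZ samples ran from 14.42 over 14.69 to 15.07 and HFD-STZ-DR samples from 13.97 over 14.41 to 14.74. Means from highest to lowest were HFD-STZ at 24 weeks 14.72, HFD-STZ at 16 weeks 14.68, HFD at 16 weeks 14.65, HFD at 24 weeks 14.64, SD at 24 weeks 14.57, HFD-DR 14.54, SD at 16 weeks 14.44 and HFD-STZ-DR 14.39, with no step beyond the spread. C4b varied least of the members, with group means 0.33 apart at most and a pooled SD within groups of 0.24.

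At 16 weeks C4b was at 14.45, 14.30, 14.10, 14.63 and 14.73 in SD and at 14.72, 14.55, 14.74, 14.70 and 14.71 in HFD-STZ, with HFD from 14.33 over 14.61 to 14.96. HFD-STZ-DR minus HFD-STZ at 24 weeks was -0.33 (95% interval -0.60 to -0.05), with 4 of 6 HFD-STZ-DR samples below all HFD-STZ samples, an exact permutation p of 0.0310 and a limma adjusted p of 0.649. The direction was the same in 5 of 6 runs with both groups, by -0.32 on average, but with run in the fit the unadjusted limma p was 0.0552. HFD minus SD was 0.07 (-0.19 to 0.33), HFD-DR minus HFD -0.10 (-0.36 to 0.16) and HFD-STZ minus SD 0.15 (-0.10 to 0.40). Alternatives put C4b at -0.02 to 0.11 for HFD minus SD, -0.14 to -0.01 for HFD-DR minus HFD, 0.09 to 0.19 for HFD-STZ minus SD and -0.40 to -0.24 for HFD-STZ-DR minus HFD-STZ, with HFD-DR minus HFD nearest 0 without HFD replicate 6. C3 and C4b were correlated at r = 0.746 over the 53 samples.

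Cfb encodes factor B, the enzyme part of the alternative pathway convertase. It was the weakest member. Cfb at 24 weeks had lowest, median and highest values of 3.68, 4.24 and 4.86 in SD, 3.92, 4.21 and 5.17 in HFD and 3.57, 4.38 and 4.76 in HFD-DR. For HFD-STZ they were 3.47, 4.86 and 5.19, and for HFD-STZ-DR 3.57, 4.06 and 4.61. All 5 ranges overlapped. At 16 weeks Cfb was 3.47, 3.28, 3.19, 4.21 and 4.58 in SD, 3.58, 3.62, 4.19, 4.11 and 4.68 in HFD-STZ, and lowest, median and highest 3.44, 4.72 and 4.88 in HFD. In order of mean, the groups were HFD-STZ at 24 weeks 4.53, HFD at 24 weeks 4.45, HFD at 16 weeks 4.33, SD at 24 weeks 4.25, HFD-DR 4.17, HFD-STZ-DR 4.06, HFD-STZ at 16 weeks 4.04 and SD at 16 weeks 3.75. No step between neighbouring groups exceeded the pooled SD within groups of 0.52. HFD minus SD at 24 weeks was 0.20 (95% interval -0.29 to 0.69) and HFD-STZ-DR minus HFD-STZ -0.47 (-1.11 to 0.16). Its ranges over the alternatives were 0.09 to 0.29 for HFD minus SD, -0.38 to -0.17 for HFD-DR minus HFD, 0.18 to 0.43 for HFD-STZ minus SD and -0.62 to -0.35 for HFD-STZ-DR minus HFD-STZ.

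C3ar1 encodes the receptor for C3a. At 24 weeks SD samples had a lowest value of 9.04, a median of 9.73 and a highest of 10.36, and HFD samples 9.09, 9.94 and 10.90. HFD-DR was tightly spaced from 9.14 over 9.37 to 9.71, HFD-STZ ran from 8.68 over 9.59 to 10.42 and HFD-STZ-DR from 8.96 over 9.35 to 9.85. In HFD, 2 of 7 samples were above all SD samples and none below.

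C3ar1 at 16 weeks was 8.92, 8.75, 9.24, 9.49 and 9.97 in SD, 9.17, 9.23, 9.42, 9.54 and 9.68 in HFD-STZ, and from 8.91 over 9.65 to 9.80 in HFD. HFD-DR minus HFD was -0.63 (95% interval -1.12 to -0.13), with all 7 HFD-DR samples below the HFD mean but none below all HFD samples, an exact permutation p of 0.0332 and a limma adjusted p of 0.642. Within runs it was lower in 5 of 6, by -0.62 on average. HFD minus SD was 0.33 (-0.22 to 0.89), HFD-STZ minus SD -0.14 (-0.65 to 0.37) and HFD-STZ-DR minus HFD-STZ -0.18 (-0.69 to 0.34). Under the alternatives C3ar1 ran over 0.18 to 0.48 for HFD minus SD, -0.78 to -0.48 for HFD-DR minus HFD, -0.27 to -0.02 for HFD-STZ minus SD and -0.30 to -0.05 for HFD-STZ-DR minus HFD-STZ.

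C5ar1 encodes the receptor for C5a. Its value in SD at 24 weeks was lowest 9.20, median 10.03 and highest 10.44, in HFD 9.13, 10.21 and 11.10 and in HFD-DR 9.32, 9.64 and 9.91. HFD-STZ ran from 8.97 over 9.88 to 10.62 and HFD-STZ-DR from 8.77 over 9.38 to 9.73. At 16 weeks SD had 8.90, 9.16, 9.35, 9.77 and 10.22, and HFD-STZ 9.22, 9.20, 9.52, 9.61 and 9.84, with HFD from 8.88 over 9.98 to 10.12. The HFD group at 24 weeks again had the widest spread.

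Both receptors had their highest means in HFD and then SD at 24 weeks. For C3ar1 the order was HFD at 24 weeks 9.99, SD at 24 weeks 9.66, HFD-STZ at 24 weeks 9.52, HFD at 16 weeks 9.46, HFD-STZ at 16 weeks 9.41, HFD-DR 9.37, HFD-STZ-DR 9.35 and SD at 16 weeks 9.27, and for C5ar1 HFD at 24 weeks 10.16, SD at 24 weeks 9.89, HFD-STZ at 24 weeks 9.84, HFD at 16 weeks 9.69, HFD-DR 9.59, SD at 16 weeks 9.48, HFD-STZ at 16 weeks 9.48 and HFD-STZ-DR 9.32. Steps between neighbours were at most 0.33 for C3ar1 and 0.27 for C5ar1, below the pooled SDs within groups of 0.45 and 0.50.

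HFD minus SD was 0.27 for C5ar1 (95% interval -0.35 to 0.88) and HFD-DR minus HFD -0.56 (-1.14 to 0.01). HFD-STZ minus SD was -0.05 (-0.55 to 0.45) and HFD-STZ-DR minus HFD-STZ -0.52 (-1.04 to 0.00). HFD-STZ-DR minus SD at 24 weeks was -0.57 (-1.03 to -0.10) with 2 of 6 samples below all SD samples, an exact permutation p of 0.0376 and a limma adjusted p of 0.448. For C5ar1 the alternatives gave 0.11 to 0.44 for HFD minus SD, -0.73 to -0.41 for HFD-DR minus HFD, -0.16 to 0.07 for HFD-STZ minus SD, -0.64 to -0.41 for HFD-STZ-DR minus HFD-STZ and -0.67 to -0.46 for HFD-STZ-DR minus SD. C3ar1 and C5ar1 were correlated at r = 0.931 over 53 samples.

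Macrophages are a known source of C1q and carry C3ar1 and C5ar1, so their markers were read beside the members. All 10 macrophage markers were above the floor, from Lyz2 at 14.21 to Fcgr1 at 7.05, so none was near 0. Their mean was 10.83 in HFD at 24 weeks, 10.61 in SD, 10.43 in HFD-DR, 10.50 in HFD-STZ and 10.26 in HFD-STZ-DR, and 10.31, 10.42 and 10.34 in SD, HFD and HFD-STZ at 16 weeks. Over 53 samples the macrophage mean was correlated with C1qa at r = 0.901, C1qb 0.906, C1qc 0.917, C3ar1 0.937 and C5ar1 0.947. Correlations were lower for C3 at 0.679, C4b at 0.490 and Cfb at 0.709.

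The HFD samples that were highest for C1q were also highest for macrophage markers. HFD replicates 4 and 6 at 24 weeks had a mean of the 3 C1q chains of 13.08 and 12.47, a macrophage mean of 11.60 and 11.27 and an adipocyte marker mean of 14.04 and 13.98. The lowest C1q means in that group, 11.05 and 11.47, were in replicates 2 and 3. In a bulk nerve sample, more or fewer macrophages and more or less RNA per macrophage cannot be told apart, and the part of macrophage number in these values was not tested.

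**Figure D4:**
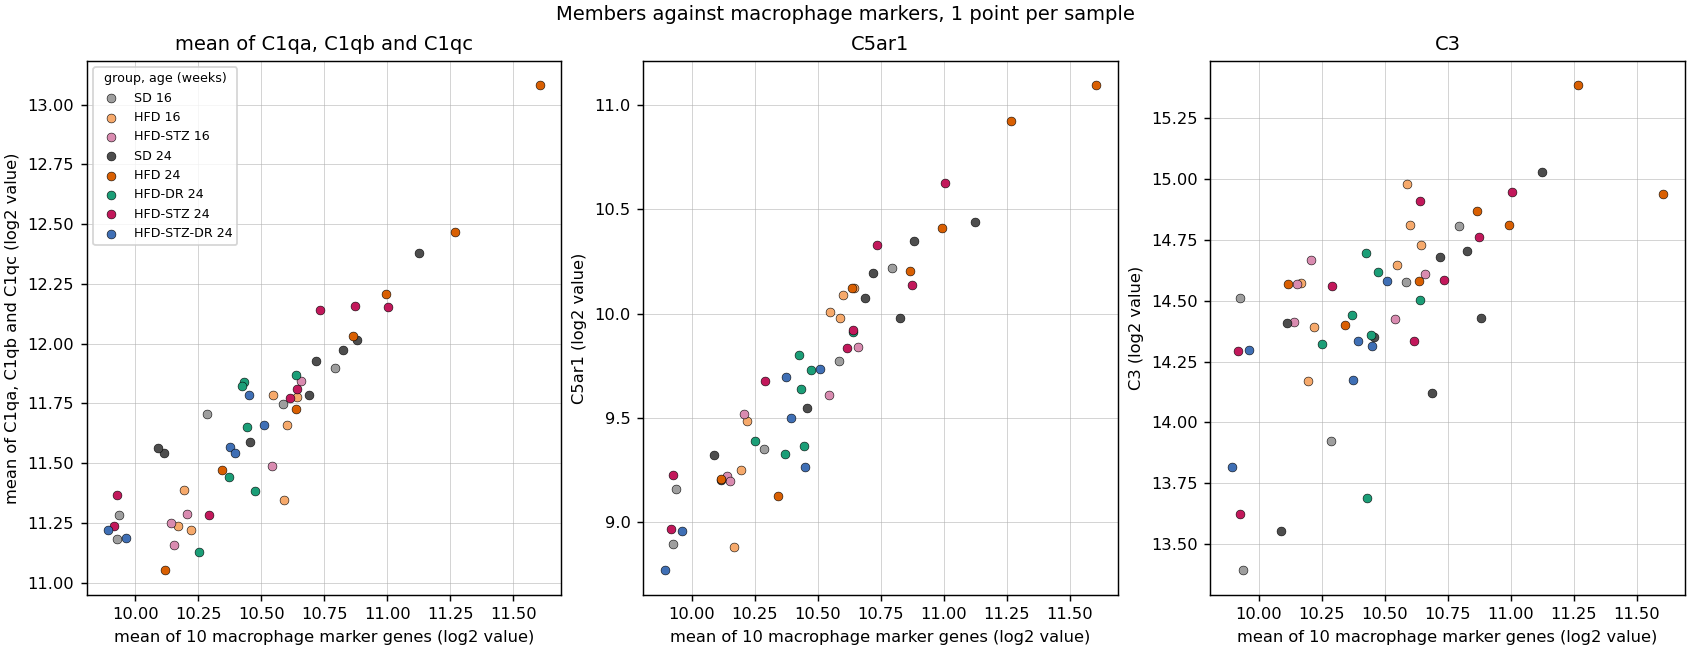
Mean of C1qa, C1qb and C1qc, C5ar1 and C3 (log2 values) against the mean of 10 macrophage markers in 53 samples, coloured by group and age. C1q and C5ar1 are higher where the macrophage mean is higher, and HFD replicates 4 and 6 at 24 weeks are at the upper right, with macrophage means of 11.60 and 11.27, while C3 scatters more.

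Markers of other cells differed between groups as well. All 6 adipocyte markers were above the floor (Fabp4 most abundant at 13.84), with means at 24 weeks of 12.81 in HFD, 11.76 in SD, 11.34 in HFD-DR, 12.68 in HFD-STZ and 10.29 in HFD-STZ-DR, and at 16 weeks of 12.46 in HFD, 9.95 in SD and 11.09 in HFD-STZ. The adipocyte mean differed by -1.47 in HFD-DR minus HFD and -2.39 in HFD-STZ-DR minus HFD-STZ, where all 8 members had lower means, and over 53 samples it was correlated with C1qa at r = 0.587, C1qb at 0.624, C1qc at 0.544, C3 at 0.568, C4b at 0.509, Cfb at 0.725, C3ar1 at 0.660 and C5ar1 at 0.718. Of the fibroblast markers, 6 of 6 were present (Dcn at 17.69), with group means from 13.18 to 13.94, and their mean was correlated with C1qa at r = 0.728, C1qb at 0.708, C1qc at 0.737, C3 at 0.725, C4b at 0.591, Cfb at 0.796, C3ar1 at 0.843 and C5ar1 at 0.859. The endothelial list (5 of 5, Cldn5 at 12.13) had means from 11.33 to 11.54 and the mast cell list (6 of 6, Tpsb2 at 9.55) from 7.75 to 9.0. Over 53 samples the endothelial mean was correlated with the members at r = 0.528 (C4b) to 0.700 (Cfb). For the mast cell mean the range was 0.103 (C4b) to 0.613 (C1qc). The Schwann cell mean was negatively correlated with all members, from -0.294 (C3) to -0.624 (Cfb). Mast cell markers had a mean of 8.10 in HFD-DR, -0.90 from HFD at 24 weeks, in the comparison where all 8 members had lower means.

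Skeletal muscle markers (6 of 6, Acta1 at 11.97) had a mean of 12.76 in HFD-DR against 10.08 in HFD at 24 weeks, a difference of 2.68 where all 8 members had lower means. In the other groups it was 11.80 in SD, 9.86 in HFD-STZ and 10.85 in HFD-STZ-DR, and 9.33, 9.59 and 8.11 in SD, HFD and HFD-STZ at 16 weeks. The highest samples were SD replicate 5 at 24 weeks (17.28) and HFD-STZ-DR replicate 4 (16.92), and these raise their group means. Both were named above for a low mean correlation with the other samples. Over 53 samples the muscle mean was correlated with C1qa at r = -0.0452, C1qb at -0.0673, C1qc at -0.0313, C3 at -0.352, C4b at -0.379, Cfb at -0.151, C3ar1 at -0.139 and C5ar1 at -0.164. Red cell markers (5 of 5, Hbb-bs at 11.48) had group means from 7.60 to 10.68. Neutrophil markers had 5 of 7 genes above the floor (Csf3r at 6.49), with the defining Ly6g at 2.19 and Cxcr2 at 2.89, and group means from 3.90 to 5.50. Of the liver markers only Alb at 5.63 exceeded the floor, Apoa1, Ttr, Serpina1a and Fga did not, and group means were 2.46 to 3.12. The part of any of these cells in the values of the members was not tested.

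Some genes outside the complement lists followed each member closely across 53 samples (18026 genes searched, r as a description, with the value after removing group means in brackets). The mean of the C1q chains was most like Pld4 at 0.924 (0.920), Fcgr3 at 0.920 (0.921), Fcer1g at 0.907 (0.911), Ms4a6d at 0.899 (0.898) and Cd74 at 0.897 (0.933). C3ar1 was most like Laptm5 at 0.937 (0.940), Adgre1 at 0.932 (0.920), Unc93b1 at 0.922 (0.918), Cd53 at 0.921 (0.913) and Cybb at 0.915 (0.913); Adgre1 is also on the macrophage list. C5ar1 was most like Unc93b1 at 0.942 (0.932), Ifi207 at 0.938 (0.939), Fcgr3 at 0.933 (0.921), Serpinf1 at 0.930 (0.932) and Nfam1 at 0.928 (0.939).

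C3 and C4b had other companions, and shared Ntrk2, which encodes the neurotrophin receptor TrkB. For C3 the 5 were Ntrk2 at 0.878 (0.872), Ptbp3 at 0.825 (0.808), Kctd12b at 0.816 (0.803), Tbl1x at 0.816 (0.811) and Ltbp3 at 0.813 (0.791). For C4b they were Ano10 at 0.821 (0.830), Arsb at 0.818 (0.831), Ntrk2 at 0.791 (0.762), Pik3r4 at 0.789 (0.842) and Tmem43 at 0.787 (0.795). Cfb was most like C1qtnf1 at 0.891 (0.885), Vsir at 0.874 (0.862), Ltbp3 at 0.873 (0.869), Ccdc80 at 0.865 (0.848) and Man2b1 at 0.862 (0.853), among them the matrix gene Ltbp3, which C3 had as well.

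The wider list added 47 complement genes, of which 33 to 37 could be tested in a given comparison. In HFD against SD at 24 weeks 37 were tested, 25 higher and 12 lower in HFD with a median difference of 0.09, and 0 passed the adjusted threshold (limma), with 6 higher and 1 lower at an unadjusted p under 0.05, where 9.05% of all genes passed. Cfi, counted among the higher genes, was tested only because its HFD values raised its mean above the floor. HFD-DR against HFD had 36 tested, 8 higher and 28 lower with a median of -0.11, 0 adjusted calls, and 1 higher and 6 lower unadjusted (6.72% of all genes). In HFD-STZ against SD, 34 were tested, 14 higher and 20 lower, with 0 adjusted and 2 unadjusted calls (5.99% of all genes). HFD-STZ-DR against HFD-STZ had 33 tested, 9 higher and 24 lower, with 1 adjusted call and 7 unadjusted, all lower (0.084% and 6.48% of all genes).

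By pathway, members included, the lists are read against the share of all genes with a higher mean, which was 52.0% in HFD against SD at 24 weeks, 49.4% in HFD-DR against HFD, 50.2% in HFD-STZ against SD and 51.9% in HFD-STZ-DR against HFD-STZ. The unadjusted shares of all genes were those given above, 9.05%, 6.72%, 5.99% and 6.48%. By share, the receptor list had most genes on one side in HFD against SD at 24 weeks and in HFD-DR against HFD. That list holds Itgax, which is among the genes that the study selected from these samples. It also holds C3ar1 and C5ar1, which varied together (r = 0.931), so its counts are not independent and nothing is drawn from its rank. Of the 9 receptor genes 8 were higher in HFD than in SD at 24 weeks (median 0.40, 0 adjusted and 2 unadjusted limma calls), and 9 of 9 lower in HFD-DR than in HFD (median -0.63, 0 adjusted and 5 unadjusted). In HFD-STZ-DR against HFD-STZ 8 of 9 were lower (median -0.44, 0 adjusted and 3 unadjusted), and in HFD-STZ against SD 7 of 9 (median -0.14, 0 adjusted and 1 unadjusted).

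The classical and lectin list had 12 of 16 tested genes higher in HFD against SD and 13 of 15 lower in HFD-DR against HFD (0 adjusted limma calls in each, 2 and 0 unadjusted). For C3 and the alternative pathway it was 4 of 5 higher and 3 of 5 lower (0 adjusted in each, 1 and 2 unadjusted). The terminal list had 3 genes tested, as C8a, C8b and C9 were below the floor, with 2 of 3 higher and 1 of 3 lower (0 adjusted, 1 unadjusted in each). Regulators had 7 of 12 higher and 10 of 12 lower (0 adjusted, 1 unadjusted in each). In HFD against SD these counts and the unadjusted call include Cfi, which passed the filter only through its HFD values.

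C6, a terminal component of the membrane attack complex, was the gene past the adjusted threshold. Its log2 value in HFD-STZ was lowest 5.46, median 7.72 and highest 8.25, and in HFD-STZ-DR 4.25, 4.60 and 5.33, and the 2 groups did not overlap. It fell by 2.55 in HFD-STZ-DR against HFD-STZ (95% interval -3.49 to -1.61, limma adjusted p = 0.0486), in 6 of 6 samples below all HFD-STZ samples. The share of all genes without overlap is not given, so nothing is drawn from this separation. C6 is among the genes that the study selected from these samples, so its direction is not independent of that choice. The call held in 2 of 14 limma fits that left out 1 sample (adjusted p from 0.00691 to 0.154, difference -2.81 to -2.41) and in 2 of 8 other alternatives (0.0228 to 0.300, difference -2.55 to -2.35).

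C6 had higher means in the disease groups than in SD. HFD minus SD at 24 weeks was 2.02 (95% interval 0.97 to 3.08, limma adjusted p = 0.141), HFD-STZ minus SD 1.57 (0.70 to 2.43) and HFD-DR minus HFD -1.71 (-3.16 to -0.27). At 16 weeks HFD minus SD was 2.27 (1.13 to 3.42) and HFD-STZ minus SD 0.89 (-0.14 to 1.92). None of these passed the adjusted threshold with all samples and no run in the fit. HFD minus SD at 24 weeks passed without HFD replicate 3 (2.38, limma adjusted p = 0.0348, 0.0348 to 0.312 over its alternatives). HFD-STZ minus SD at 16 weeks passed with run in the fit of the compared groups (1.40, limma adjusted p = 0.0474, 0.0474 to 0.858 over its alternatives). With run in the fit of all 8 groups, that difference was 0.82 and did not pass (limma adjusted p = 0.771). Adipocyte markers varied with C6 over the 53 samples at r = 0.865, and their part in the C6 values was not tested.

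Itgax, the CD11c chain of complement receptor 4, had values in SD at 24 weeks of lowest 4.84, median 5.52 and highest 6.51, and in HFD 6.24, 7.39 and 8.40. HFD minus SD was 1.79 (95% interval 1.01 to 2.57, limma adjusted p = 0.0683), with 5 of 7 HFD samples above all SD samples. It passed in 3 of 8 alternatives (limma adjusted p from 0.0191 to 0.190) and in 2 of 15 fits that left out 1 sample (0.0334 to 0.175). HFD-DR minus HFD was -1.44 (-2.20 to -0.68, limma adjusted p = 0.332) and HFD-STZ minus SD 1.05 (0.21 to 1.90). Itgax is, like C6, among the genes that the study selected, so its direction is not independent of that choice. Its correlation with the adipocyte mean was 0.744 over 53 samples, whose part was not tested. Itgb2, the beta chain shared by complement receptors 3 and 4, differed by 0.82 in HFD minus SD and -0.89 in HFD-DR minus HFD (limma adjusted p = 0.375 and 0.475).

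Cfd went the other way. Its values were 13.27, 15.26 and 16.10 (lowest, median, highest) in SD at 24 weeks and 12.02, 13.21 and 14.66 in HFD. HFD minus SD was -1.87 (95% interval -2.84 to -0.90, limma adjusted p = 0.139) and HFD-DR minus HFD 1.18 (0.13 to 2.23, adjusted p = 0.716). Over 53 samples Cfd was correlated with the endothelial mean at r = 0.753, the fibroblast mean at 0.663 and the adipocyte mean at 0.625. In HFD minus SD at 24 weeks these 3 means differed by -0.004, 0.11 and 1.05, where Cfd was lower. For HFD-DR minus HFD they differed by -0.02, -0.39 and -1.47, where Cfd was higher. The part of these cells was not tested.

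The other named genes had smaller differences. In HFD against SD they were Cfi (factor I, a regulator that degrades C3b) at 0.67, whose mean was above the floor in HFD (3.71) but below it in SD (3.04), and Masp2 (a lectin pathway protease) at 0.48. Cfi was thus tested only through the group where it was higher, and nothing is drawn from its difference. In HFD-DR against HFD, C5ar2 (the other C5a receptor) differed by -0.48 and Itgam (the CD11b chain of complement receptor 3) by -0.85. None of these passed the adjusted threshold (limma adjusted p = 0.317 to 0.669).

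**Figure D5:**
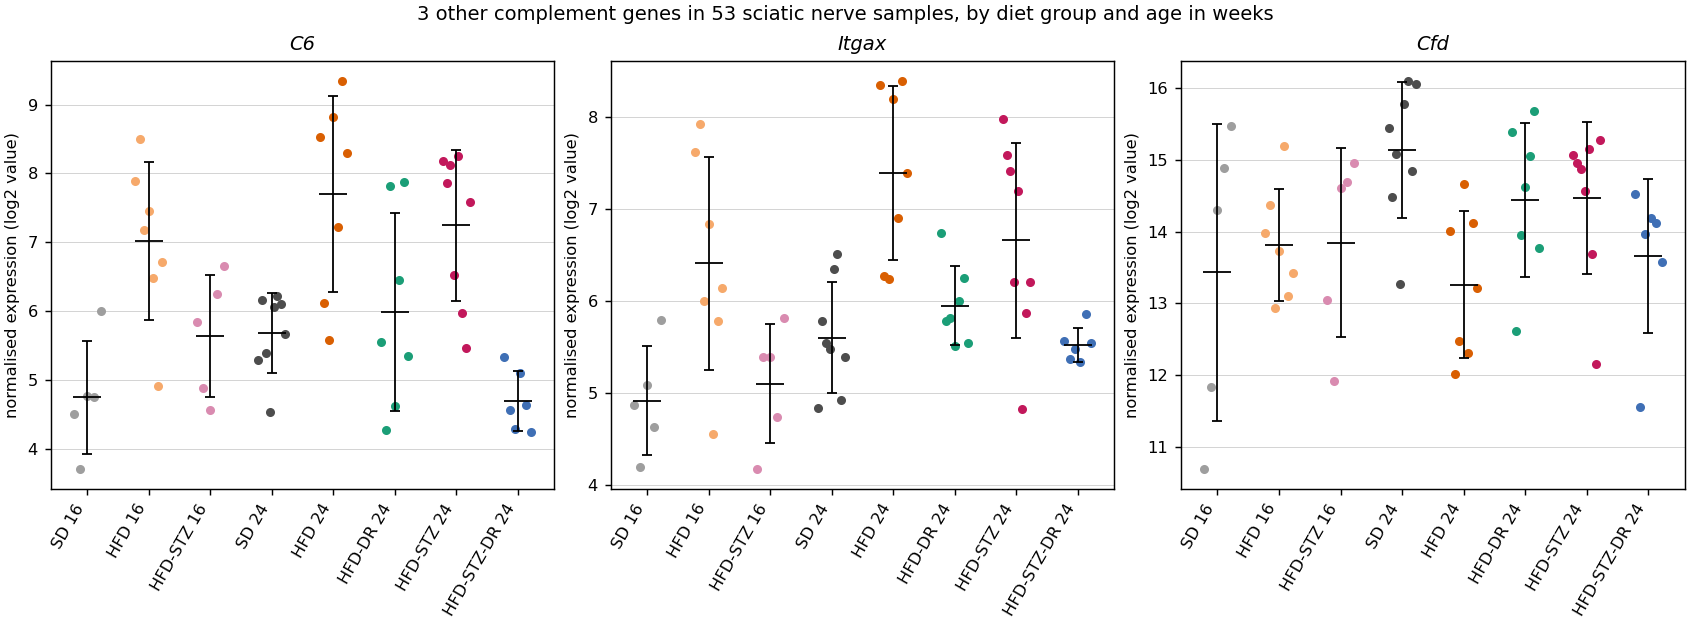
Log2 values of C6, Itgax and Cfd in 53 samples by group and age; points are samples, long bars means and whiskers 1 SD. C6 lies between 4.25 and 5.33 in HFD-STZ-DR and between 5.46 and 8.25 in HFD-STZ at 24 weeks, and Cfd is lower in HFD than in SD at 24 weeks (medians 13.21 and 15.26).

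Without HFD-STZ replicate 7, HFD-STZ against SD at 24 weeks had 4 members higher and 4 lower with 0 adjusted and 0 unadjusted calls (limma), and HFD-STZ-DR against HFD-STZ all 8 lower with 0 adjusted and 3 unadjusted calls. Over all genes tested the adjusted calls were then 10 of 17867 and 117 of 17884, against 6 and 15 with it, and the unadjusted shares 7.11% and 8.28%. HFD-STZ minus SD was then -0.04 for C1qa (-0.11 with it), -0.01 for C1qb (-0.04 with it), -0.11 for C1qc (-0.17 with it), 0.22 for C3 (0.09 with it), 0.19 for C4b (0.15 with it), 0.39 for Cfb (0.28 with it), -0.02 for C3ar1 (-0.14 with it) and 0.04 for C5ar1 (-0.05 with it).

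HFD-STZ-DR minus HFD-STZ without the sample was -0.34 for C1qa (-0.27 with it), -0.33 for C1qb (-0.29 with it), -0.23 for C1qc (-0.18 with it), -0.37 for C3 (-0.25 with it), -0.37 for C4b (-0.33 with it), -0.58 for Cfb (-0.47 with it), -0.30 for C3ar1 (-0.18 with it) and -0.61 for C5ar1 (-0.52 with it). The 3 unadjusted calls were C3, C4b and C5ar1 (limma adjusted p = 0.357, 0.341 and 0.459). C6 gave -2.81 in HFD-STZ-DR minus HFD-STZ without that sample (limma adjusted p = 0.0112, with 0.00691 to 0.154 over all fits that left out 1 sample).

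The library numbers in the sample names fall into 8 runs of consecutive numbers, except that run 3 skips a number. The labels do not say what the runs are. A run holds between 3 and 8 of the groups. The mean of the C1q chains deviated from group means by -0.31 in run 2 and by 0.32 in run 5, and the macrophage mean by -0.20 and 0.24. With run as a covariate 0 members passed the adjusted threshold in any comparison (limma), the smallest adjusted p being 0.0935, for C1qb in HFD-STZ at 24 against 16 weeks, where 6 members had an unadjusted p under 0.05 beside 20.5% of 17963 genes. Over all alternatives the limma adjusted p of C1qb in that comparison ran from 0.0935 to 0.663, with a difference of 0.32 to 0.55.

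Other counts also moved with run in the fit. In HFD-STZ against SD at 16 weeks 7 members were higher and 1 lower with 4 unadjusted and 0 adjusted calls, beside 19% of 17879 genes unadjusted and 96 genes adjusted. The 4 unadjusted calls were C4b at 0.35, C3ar1 at 0.36, Cfb at 0.60 and C5ar1 at 0.25, each higher in 4 of 4 runs with both groups (limma adjusted p from 0.147 to 0.239). These counts are from the fit of the compared groups. With run in the fit of all 8 groups, that comparison had 1 gene past the adjusted and 1169 of 18069 past the unadjusted threshold. In SD at 24 against 16 weeks 5 members had an unadjusted p under 0.05, C1qa, C1qb, C1qc, C3ar1 and C5ar1, with 0 adjusted, beside 12.8% of 17788 genes. C1qb, C1qc, C3ar1 and C5ar1 were higher at 24 weeks in 5 of 5 runs, and C3 turned to -0.01.

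In HFD-DR against SD at 24 weeks 2 members were higher and 6 lower with run in the fit, with 2 unadjusted and 0 adjusted calls beside 5.43% of 18145 genes. HFD-STZ-DR against SD had 8 lower with 5 unadjusted and 0 adjusted calls, beside 11.7% of 17889 genes. In HFD-DR against HFD all 8 were lower, with 2 unadjusted calls, C1qb and C3ar1 in place of C3 and C3ar1, and 0 adjusted, beside 5.63% of 18475 genes. HFD against SD at 24 weeks had 1 unadjusted call, C3, beside 9.98% of 18191 genes, HFD-STZ against HFD at 16 weeks 1 beside 6.41% of 18202 genes, and the remaining comparisons 0 (limma, with 0 adjusted in all of these).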

How the data were processed

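The authors mapped reads to mm10 with HISAT2 and summarised them per gene with featureCounts, per the labels and the study's methods. Versions are not given in the sources used here. The study's methods describe non-stranded polyA-selected libraries, and the labels name different extraction and library kits from those methods. The deposited values are log2 expression, 1 file per sample; the study's methods name FPKM and DESeq2, but not how these values were scaled, and low-level genes vary little between samples (median SD 0.0797 for means of -3 to 0, 0.482 for 3 to 6). The deposited values are not counts. Samples were grouped by labelled diet, STZ, reversal and age. Genes with any value above 22 (25 genes) were left out, as were genes with a mean below 3.32 in the samples fitted. Each comparison used only its groups, in limma 3.58.1 (R 4.3.3) with a variance trend and Benjamini-Hochberg adjustment over all genes tested, in place of the study's count test, since no counts were used. A 2-sided exact permutation test compared the means of each member. Tables and plots used Python 3.11.15, numpy 2.4.6, pandas 2.3.3 and matplotlib 3.10.9, and scripts were tested on simulated data. Named genes were the 8 members in every comparison; complement genes of the wider list past the adjusted threshold, or otherwise up to 6 per disease or reversal comparison at 24 weeks with the smallest unadjusted p under 0.05; the most abundant cell type markers and those near 0; and the 5 genes most like each member. The members and lists were chosen with earlier results of these data known. Alternatives changed the filter, samples in the fit, run, variance prior, scaling and left-out samples. Replicates were numbered in accession order, so equal replicate numbers do not pair samples, and were taken as separate animals. The labels name no pairing between groups. The main limma fits with their intervals and the permutation tests did not use the library-number runs, which entered only the fits with run.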

Additional observations from a re-analysis of the deposited data

Results flagged for a closer look

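Of 64 combinations of member and group, 3 held a sample far from the rest of its group, which is near the rate of about 1 in 20 that chance alone gives. For C3, HFD-DR replicate 1 at 24 weeks was lowest with a log2 value of 13.69, the next sample being at 14.32. For C4b, HFD-STZ replicate 2 at 16 weeks was lowest at 14.55, with the nearest at 14.70, and HFD replicate 6 at 24 weeks was highest at 15.17, with the nearest at 14.64. The causes were not tested.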

How the results depend on the processing

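The alternatives were a filter on low values (none, or the floor in every sample), all 8 groups in 1 fit, run as a covariate, another variance prior, median centring and leaving out each sample. Members' adjusted calls were 0 in all 407 fits (limma), with a smallest adjusted p of 0.0935. With run as a covariate in all 8 groups, HFD minus SD at 16 weeks became 0.0063 for C1qa and 0.022 for C1qb, and HFD-STZ minus SD at 16 weeks became 0.041 for C5ar1; with run in the compared groups, the latter comparison gave 0.022 for C1qa, 0.0097 for C1qb and 0.25 for C5ar1. Leaving out 1 sample gave ranges across 0 for HFD minus SD at 24 weeks (C1qa -0.012 to 0.33, C1qc -0.061 to 0.26, C4b -0.018 to 0.11), for HFD-STZ minus SD at 24 weeks (C1qb -0.10 to 0.032, C3 -0.030 to 0.22, C5ar1 -0.16 to 0.075), for HFD minus SD at 16 weeks (C1qa -0.14 to 0.051, C1qb -0.13 to 0.063) and for HFD-STZ minus SD at 16 weeks (C5ar1 -0.15 to 0.18).
Over all alternatives, ranges also crossed 0 for HFD-DR minus SD (C3 -0.16 to 0.08, C4b -0.09 to 0.04, Cfb -0.18 to 0.02), HFD-STZ-DR minus HFD-DR (C3ar1 -0.12 to 0.06), HFD-STZ minus HFD at 24 weeks (Cfb -0.02 to 0.22) and 16 weeks (C1qc -0.15 to 0.02, C3ar1 -0.25 to 0.01, C4b -0.03 to 0.09). For 24 minus 16 weeks they did so in SD (C3 -0.05 to 0.31), HFD (C4b -0.10 to 0.11, Cfb -0.03 to 0.33) and HFD-STZ (C3 -0.12 to 0.10, C3ar1 -0.01 to 0.45, C4b -0.03 to 0.11), and for 11 of 24 interaction tests.
Counts of other complement genes past the adjusted threshold moved as well. HFD against SD at 24 weeks went from 0 to 1 with all 8 groups, with all 8 and run, and with median centring (0 to 2 when leaving out 1 sample). HFD-STZ-DR against HFD-STZ went from 1 to 0 with no filter, the floor in every sample, run in the compared groups, robust or untrended priors and centring (0 to 1 when leaving out 1 sample). HFD-STZ against SD at 16 weeks went from 0 to 1 with run in the compared groups and SD at 24 against 16 weeks from 0 to 1 with all 8 groups and with all 8 and run. The cause was not tested. The deposited values are not counts, so counting precision is not given.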
